A study of Mus musculus with 24 samples.

Results

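The genes described here are 10 that cells are known to induce when amino acids run short: Asns, Psat1, Phgdh, Shmt2, Mthfd2, Cth, Chac1, Trib3, Sesn2 and Ddit3. They were picked by name from the 40173 genes of the deposited mouse tables, and all 10 passed the filter on low counts that left 23630 genes for testing. The study concerns maternal diet and the progenitors of pancreatic islets, and its libraries hold RNA of E15.5 pancreas cells that a sorter selected for eGFP. In the Ngn3-eGFP line used, eGFP replaces the coding sequence of Neurog3 (also Ngn3), whose protein commits progenitors to the endocrine lineage. Dams were Ngn3eGFP/+ and 6 weeks old when their diet began, 2 weeks before mating with Ngn3eGFP/+ males on control diet, and they stayed on it until collection.

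By title, the groups compared held 4 mutant libraries of low-protein diet (LPD), 3 of high-fat diet (HFD) and 4 of normal diet (ND). They also held 4 control LPD, 3 control HFD and 3 control ND libraries. A further library titled control ND 1, the library of mixed genotype described further on, entered none of these groups. Every group carried eGFP at the Neurog3 locus, and per the labels each library pooled male and female embryos. The design text describes eGFP+ cells of Ngn3eGFP/eGFP embryos as progenitors that had not committed and those of Ngn3eGFP/+ embryos as committed endocrine cells. As labelled genotype, titled mutant libraries carry Ngn3eGFP/+ and titled control libraries carry Ngn3eGFP/eGFP. Neurog3 stood at 6.13 to 23.2 CPM (counts scaled to the total of each library) in titled mutant libraries and at 99.0 to 276 in titled control libraries, so the field and these values go against each other, and the groups are called here by their titles. The list of 15 endocrine markers described further on summed to 5.64 to 446 TMM-scaled CPM in titled mutant libraries and to 2404 to 9744 in titled control libraries. Nothing in the labels says that replicates came from separate litters, so p-values measure the spread between these libraries.

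When amino acids are scarce, uncharged transfer RNA activates the kinase GCN2, which phosphorylates the translation factor eIF2alpha, and translation of the transcription factor ATF4 goes up. ATF4 then raises enzymes that make amino acids, among them asparagine synthetase (Asns) and the serine and one-carbon enzymes, and also genes that restrain the response or signal stress. Other eIF2alpha kinases reach the same genes, for example PERK when the endoplasmic reticulum is stressed. Acinar cells of the pancreas, which make digestive enzymes in bulk, are known for high use of amino acids.

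ATF4 and its C/EBP partners bind an element with the core TGATGNAA. This core, searched on both strands (TTNCATCA on the other one) from 250 bases before to 50 bases after each start site in the RefSeq promoter table (GRCm38.p6), was present in Asns, Chac1 and Trib3, 3 of the 9 members with a promoter in that table. It was present in 4.51% of all 27025 genes there, and in 3.97% of all 32851 promoters. The stretches that hold it are given because these genes also show the different patterns described further on. Capitals mark the match. The Asns stretch is the 100 bases before the start site on the minus strand at chr6:7693210-7693309, with the match at positions -23 to -16. The Chac1 stretch lies on the plus strand at chr2:119350992-119351091, with the match at -193 to -186. For Trib3, on the minus strand at chr2:152344031-152344060, the 30 bases from the start site on are given, with the match at bases 15 to 22. Positions count from the RefSeq start sites, and the deposited genes start elsewhere. The deposited Asns starts at 7693254, so its match lies within that gene. The deposited Trib3 starts at 152344032, so its match lies before that gene.
Asns: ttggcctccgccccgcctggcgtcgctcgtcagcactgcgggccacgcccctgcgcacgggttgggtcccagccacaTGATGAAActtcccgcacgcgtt
Chac1: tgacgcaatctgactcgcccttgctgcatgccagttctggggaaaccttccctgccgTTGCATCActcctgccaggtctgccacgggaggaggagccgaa
Trib3: agattagctcaggtTTACATCAgccgggcg
The match reads on the gene's strand in Asns and on the opposite strand in Chac1 and Trib3. Psat1, Phgdh, Shmt2, Mthfd2, Sesn2 and Ddit3 held no match in this window, and a match is a stretch of letters, not a measured binding site.

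Total counts per library ran from 17922240 to 44688814. A group of 3 ND libraries (mutant ND 2, mutant ND 3 and control ND 2) had 72.2% to 79.4% duplicate reads, against 37.7% to 65.5% in the other 18, and 32.7% to 66.9% of their counts fell on the gene Gm26917. Of the 7 ND libraries, 5 carry library numbers of 25 or above in their descriptions, and all LPD and HFD libraries carry lower ones, so in most ND libraries the diet goes with a later number. No pair of replicates agreed within sampling noise. The mutant HFD 1, LPD 1 and LPD 2 libraries held some hormone transcripts, with Ins2 over 5 CPM.

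Levels below are CPM scaled between libraries by the TMM method, and levels between genes are compared per kilobase of gene length. On that length scale Phgdh was the most abundant member, with a median of 173 CPM per kilobase over 21 libraries, followed by Asns at 71.9, Shmt2 at 54.7 and Psat1 at 23.4. Cth (9.49), Mthfd2 (8.47), Sesn2 (7.09) and Ddit3 (4.77) were lower on the same scale. Trib3 at 1.03 and Chac1 at 0.684 CPM per kilobase were the 2 lowest, with as few as 7 and 0 counts in a library, and their fold changes have the widest errors. The enzymes that make amino acids thus filled the top of the order in these cells and the stress signalling genes the bottom.

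**Figure D1:**
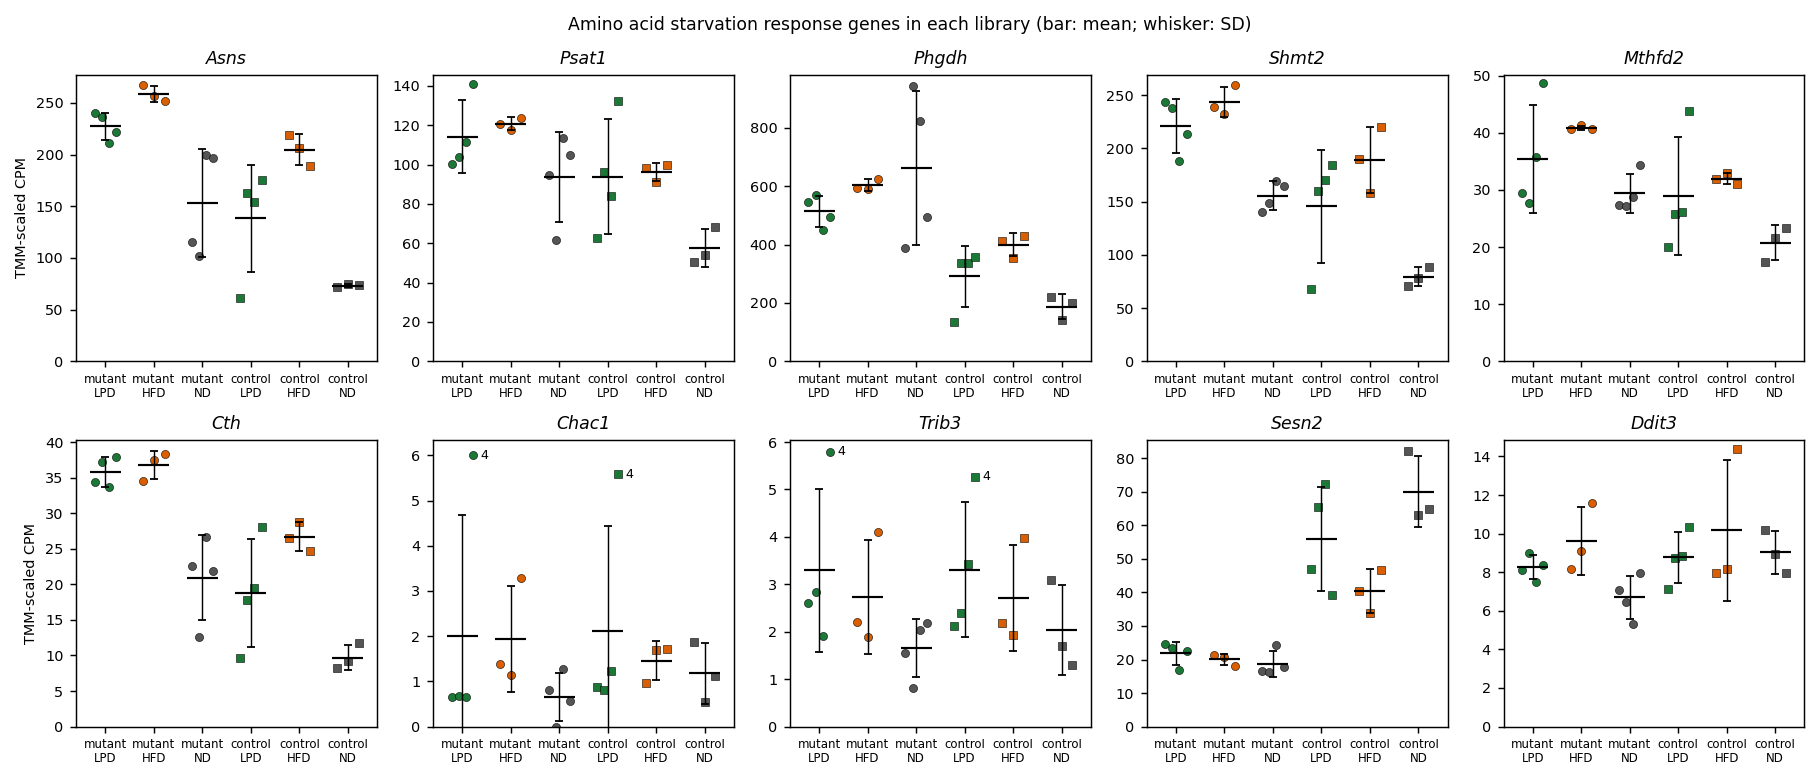
Level of each of the 10 genes in each library (TMM-scaled CPM, linear axis from 0, circles titled mutant, squares titled control, green LPD, orange HFD, grey ND). Bars are group means and whiskers SD, cut off at 0, and the LPD 4 libraries are marked in the Chac1 and Trib3 panels, where they reach 6.01 and 5.59 CPM and 5.80 and 5.27 CPM.

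In titled control cells on HFD, 4 of the 6 synthesis enzymes were higher and the nutrient sensor Sesn2 was lower than on ND, by edgeR's quasi-likelihood test with Benjamini-Hochberg adjustment over all tested genes (threshold 0.05). Asns, Cth, Shmt2 and Phgdh rose 2.80-fold, 2.74-fold, 2.39-fold and 2.13-fold. Sesn2 was 1.73-fold lower, and the other 5 members did not pass. Of all genes tested, 3.1% were called higher and 0.808% lower in this comparison, against 4 and 1 of the 10 members. Leaving out 1 library moved the count over all genes from 924 to as few as 77 (without control ND 2) or as many as 2575 (without mutant ND 2). All 6 synthesis enzymes had every HFD library above every ND library, a pattern shown by 17% of all genes, and Sesn2 had every HFD library below, shown by 14.3%. In bulk RNA of sorted cells, fewer cells of a type and less RNA per cell cannot be told apart.

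Asns, which makes asparagine from aspartate and glutamine (chromosome 6, 7675169 to 7693254, GRCm38.p6), stood at 219, 206 and 189 CPM in the control HFD libraries, against 71.4, 74.4 and 73.7 in the control ND libraries. The ND values lay within 3 CPM of each other, far below the lowest HFD library. The log2 fold change was 1.49 with a standard error of 0.28 (adjusted p = 0.00564 in edgeR). Cth, cystathionine gamma-lyase, the last step of cysteine synthesis from methionine (chromosome 3, 157894248 to 157925077), stood at 26.5, 28.8 and 24.8 CPM on HFD, against 8.21, 9.22 and 11.7 on ND. Its log2 fold change was 1.46 ± 0.27 (SE, edgeR adjusted p = 0.00583), again with wide separation of the groups.

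Shmt2, the mitochondrial enzyme that turns serine into glycine and a folate-bound carbon unit (chromosome 10, 127517123 to 127522444), stood at 190, 158 and 220 CPM in control HFD libraries, against 70.8, 78.2 and 88.6 in control ND libraries. It rose by 1.26 ± 0.24 on the log2 scale (SE, edgeR adjusted p = 0.00625). Phgdh, the entry enzyme of serine synthesis (chromosome 3, 98313170 to 98339990), stood at 411, 355 and 431 CPM on HFD, against 222, 140 and 200 on ND, with a log2 fold change of 1.09 ± 0.30 (SE) that passed narrowly (edgeR adjusted p = 0.0479). The groups of both genes did not overlap.

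Psat1, the transaminase that follows Phgdh (chromosome 19, 15904678 to 15947337), stood at 98.0, 91.2 and 99.5 CPM on HFD in titled control, against 50.3, 53.8 and 68.3 on ND. Mthfd2, which carries the one-carbon unit onward in mitochondria (chromosome 6, 83305691 to 83325908), stood at 32, 33 and 31 CPM on HFD, against 17.5, 21.5 and 23.4 on ND. Neither passed the test, with log2 fold changes of 0.74 ± 0.22 and 0.62 ± 0.23 (SE, edgeR adjusted p = 0.0622 and 0.129), although neither gene's groups overlapped.

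Sesn2 encodes sestrin 2, which binds leucine and holds back the growth kinase mTORC1 when leucine is lacking (chromosome 4, 132492032 to 132510501). It stood at 40.5, 33.9 and 46.9 CPM in control HFD libraries, against 82.2, 63.1 and 64.8 in control ND libraries. All HFD libraries lay below all ND libraries, opposite to the enzymes, with a log2 fold change of -0.79 ± 0.21 (SE, edgeR adjusted p = 0.0395). Without the control ND 2 library, which is rich in duplicates, the change was -0.66 with an adjusted p of 0.219, and none of the 10 members passed, Asns coming closest (1.47, adjusted p = 0.0543 in edgeR). Within the libraries numbered below 25, which leave control ND 4 as the sole control ND library, none passed either, with Asns at 1.46, Cth at 1.17 and Sesn2 at -0.70 on the log2 scale.

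The 3 genes that signal stress or restrain the response did not pass on HFD in titled control. Chac1, an enzyme that breaks down glutathione, stood at 0.962, 1.69 and 1.72 CPM on HFD, against 1.88, 0.533 and 1.12 on ND. Trib3, a pseudokinase that feeds back on ATF4 (chromosome 2, 152337422 to 152344032), stood at 2.18, 1.94 and 3.98 CPM on HFD, against 3.10, 1.70 and 1.30 on ND. Ddit3, the transcription factor CHOP of the stress response (chromosome 10, 127290774 to 127296288), stood at 7.95, 8.17 and 14.4 CPM on HFD, against 10.2, 8.96 and 7.96 on ND. The groups of all 3 genes overlapped, and their edgeR adjusted p-values ran from 0.686 for Trib3 to 0.892 for Chac1.

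**Figure D2:**
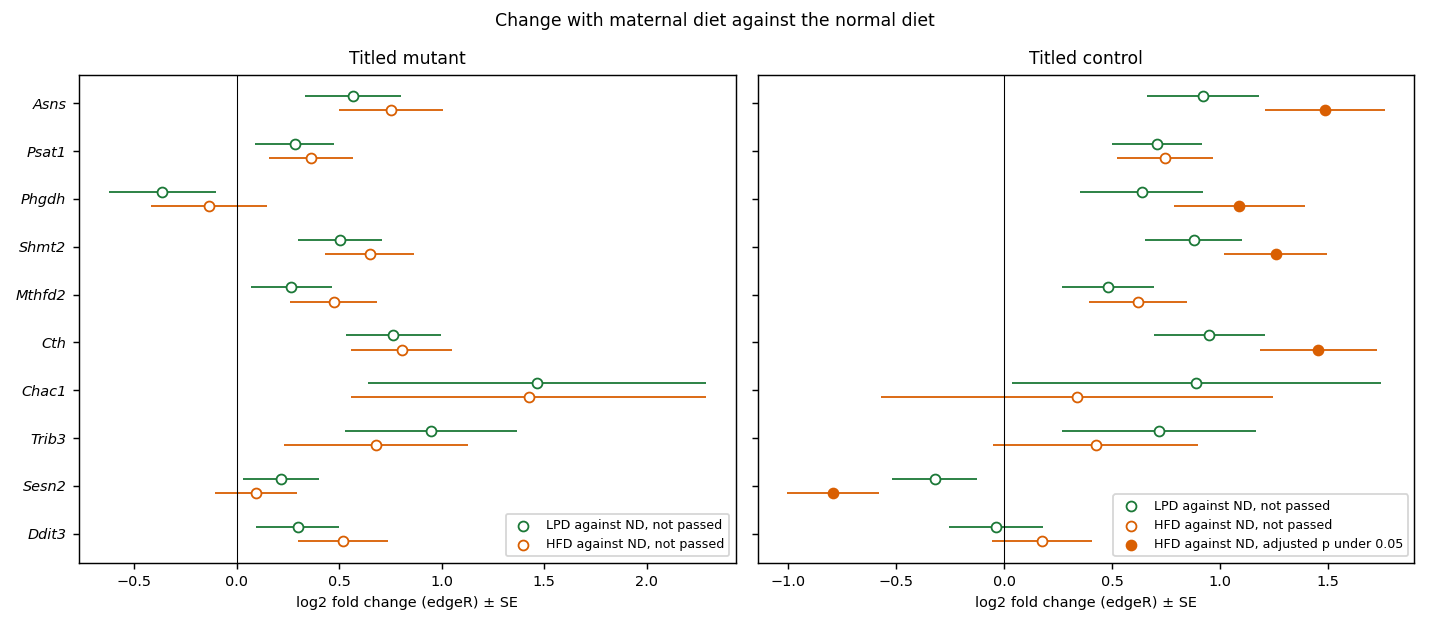
The log2 fold change of each gene against ND (horizontal axis, edgeR estimate with its standard error), LPD in green and HFD in orange, with titled mutant on the left and titled control on the right. Filled points passed the test at an adjusted p under 0.05, which were Asns, Cth, Shmt2, Phgdh and Sesn2 on HFD in titled control; the horizontal scales of the panels differ.

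On LPD, no member passed in titled control, and neither did any gene of the 23630 tested (0%) by edgeR, where 1553 genes had an unadjusted p under 0.05 and DESeq2 called 7. The values of the synthesis enzymes nevertheless sat above ND in most libraries. Asns stood at 61.6, 163, 154 and 175 CPM in control LPD libraries 1 to 4, Shmt2 at 67.4, 160, 170 and 185, and Cth at 9.59, 17.8, 19.4 and 28.1. Libraries 2, 3 and 4 lay above all ND libraries for these genes, while control LPD 1 lay below all ND libraries for Asns and Shmt2 and between them for Cth. Phgdh showed the same, with 134 CPM in control LPD 1 and 336, 338 and 357 in the others. No member had all LPD libraries on one side of all ND libraries, a separation that 2.41% of all genes showed upward.

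The log2 fold changes on LPD in titled control were 0.92 ± 0.26 for Asns, 0.88 ± 0.22 for Shmt2, 0.95 ± 0.26 for Cth and 0.71 ± 0.21 for Psat1 (SE, edgeR adjusted p = 0.612 for the first 3 and 0.618 for Psat1). All 6 synthesis enzymes had an unadjusted p under 0.05 and were higher on LPD. A single library decided the call: without control LPD 1, Asns (1.15), Cth (1.15), Shmt2 (1.10) and Psat1 (0.85) passed, with edgeR adjusted p-values of 0.00379, 0.00921, 0.000612 and 0.0343, and 310 genes passed in all. Sesn2 stood at 46.9, 65.4, 72.4 and 39.2 CPM on LPD, around its ND values, with a log2 fold change of -0.32 ± 0.20 (SE, edgeR adjusted p = 0.847).

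LPD set against HFD within titled control gave no call among the members, nor among all genes (0%; 1463 genes at an unadjusted p under 0.05, and 22 called by DESeq2). Asns was the member whose LPD libraries, at 61.6 to 175 CPM, all lay below its HFD libraries at 189 to 219 CPM, a separation shown downward by 5.48% of all genes. Its log2 fold change of LPD over HFD was -0.57 ± 0.25 (SE, edgeR adjusted p = 0.786). Sesn2 pointed the other way at 0.47 ± 0.20 (adjusted p = 0.780).

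In titled mutant cells no member passed on either diet, while 1.05% of all genes passed on LPD and 2.86% on HFD. These shares depended on single libraries: the number of genes called ran from 3 (without mutant LPD 2) to 2439 (without mutant ND 1) on LPD, and from 42 (without mutant HFD 3) to 1835 (without mutant ND 1) on HFD. Asns stood at 240, 236, 211 and 222 CPM in mutant LPD libraries and at 267, 257 and 252 in mutant HFD libraries, against 115, 102, 199 and 197 in mutant ND libraries. The mutant ND libraries split into a lower and a higher pair, both beneath every LPD and HFD library. The log2 fold changes were 0.57 ± 0.24 on LPD and 0.75 ± 0.25 on HFD (SE, edgeR adjusted p = 0.165 and 0.0976).

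Cth in titled mutant stood at 34.4, 37.3, 33.7 and 37.9 CPM on LPD and at 34.6, 37.6 and 38.3 on HFD, against 22.5, 12.5, 26.7 and 21.9 on ND. Its log2 fold changes were 0.77 ± 0.23 and 0.81 ± 0.25 (SE, edgeR adjusted p = 0.0767 and 0.0749), the smallest adjusted p-values of any member on these diets. Shmt2 stood at 243, 238, 188 and 214 CPM on LPD and at 239, 233 and 260 on HFD, against 140, 149, 169 and 164 on ND. DESeq2 called Cth on LPD and Asns, Shmt2 and Cth on HFD, all higher. Among all 23630 tested genes it called 2302 on LPD and 2373 on HFD, in either direction. Asns, Shmt2 and Cth had no overlap with ND on LPD (7.37% of all genes upward), and Asns, Psat1, Shmt2, Mthfd2, Cth and Ddit3 had none on HFD (11.3%).

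Psat1 and Mthfd2 did not pass in titled mutant, with log2 fold changes of 0.28 and 0.27 on LPD. Psat1 stood at 100, 104, 112 and 141 CPM on LPD and at 121, 117 and 124 on HFD, against 94.8, 61.6, 113 and 105 on ND. Mthfd2 stood at 29.5, 27.7, 35.8 and 48.6 CPM on LPD and at 40.6, 41.3 and 40.6 on HFD, against 27.3, 27.2, 28.8 and 34.3 on ND. In both genes the highest LPD library was mutant LPD 4. Ddit3 stood at 8.14, 8.99, 7.49 and 8.38 CPM on LPD and at 8.17, 9.11 and 11.6 on HFD, against 7.10, 6.45, 5.30 and 7.95 on ND, with a log2 fold change of 0.52 ± 0.22 on HFD (SE, edgeR adjusted p = 0.169).

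On the TMM scale, Phgdh stood apart from the other enzymes in titled mutant. It stood at 544, 570, 450 and 495 CPM on LPD and at 594, 589 and 626 on HFD, against 388, 942, 823 and 495 on ND. The 2 highest ND values came from mutant ND 2 and mutant ND 3, both with over 70% duplicates, and the other 2 ND libraries did not exceed 495 CPM. In deposited FPKM, mutant ND 2 was instead the lowest at 145, against 176, 260 and 201 in mutant ND 1, 3 and 4. The log2 fold changes were -0.36 ± 0.26 on LPD and -0.13 ± 0.28 on HFD (SE, edgeR adjusted p = 0.426 and 0.812), but leaving out every ND library above 70% duplicates turned them to 0.22 and 0.47 (adjusted p = 0.784 and 0.417). With limma on log2(FPKM + 1) the changes were 0.161 on LPD and 0.323 on HFD (adjusted p = 0.656 and 0.473). The part of library quality and scaling in these values was not tested.

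Sesn2 in titled mutant differed little between diets, with 24.6, 23.4, 16.8 and 22.4 CPM on LPD and 21.3, 20.8 and 18.03 on HFD, against 16.5, 16.2, 24.3 and 17.9 on ND. LPD against HFD gave no call in titled mutant, among members or all genes (0%; 632 genes at an unadjusted p under 0.05, and 1 called by DESeq2). Asns and Phgdh had all LPD libraries below all HFD libraries there, as did 6.94% of genes, with log2 fold changes of -0.19 ± 0.25 and -0.23 ± 0.28 (SE).

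**Figure D3:**
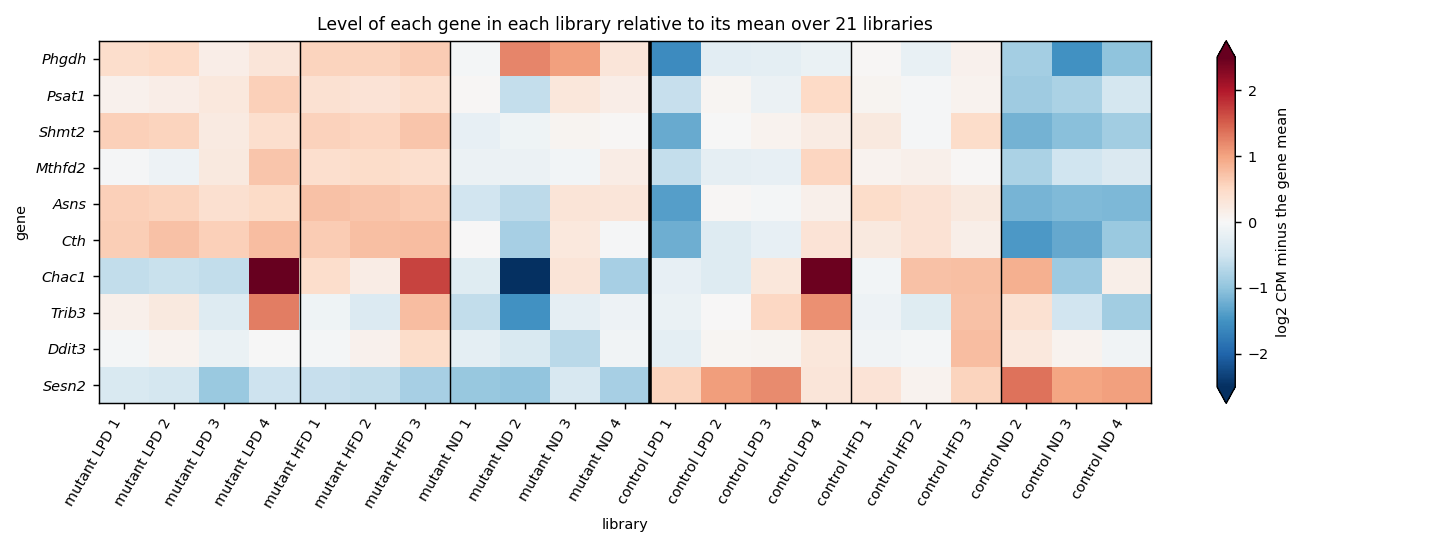
The log2 CPM of each gene (rows) in each of 21 libraries (columns), minus the mean of that gene over the libraries, with the colour scale saturated beyond 2.5. Titled mutant libraries are left of the thick line and titled control libraries right of it, in the order LPD, HFD and ND; control LPD 1 resembles the control ND libraries in the enzyme rows, the LPD 4 libraries stand out for Chac1 and Trib3, and the Sesn2 row is lower in titled mutant than in titled control throughout.

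Whether the diets acted differently by title was tested as the diet change in titled mutant minus that in titled control. No member passed for LPD or for HFD, and no gene did (0% in both; 1383 and 1677 genes at an unadjusted p under 0.05, with 0 and 11 called by DESeq2). The differences of largest size among well-counted members were those of Phgdh, -0.999 ± 0.39 for LPD and -1.22 ± 0.42 for HFD (log2, SE), and of Sesn2, 0.88 ± 0.29 for HFD. Their unadjusted p-values in edgeR were 0.0175, 0.00783 and 0.00624, and the adjusted values 0.832, 0.639 and 0.639. Asns differed by -0.73 ± 0.37 for HFD (adjusted p = 0.716). A smaller change in titled mutant than in titled control is therefore not shown for any member.

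Between titles, Sesn2 was lower in titled mutant on every diet. Sesn2 averaged 21.8 ± 3.5 CPM in mutant LPD, 20.02 ± 1.7 in mutant HFD and 18.7 ± 3.8 in mutant ND libraries, against 56.0 ± 15.51 in control LPD, 40.4 ± 6.5 in control HFD and 70.02 ± 10.6 in control ND libraries (SD, n = 4, 3, 4, 4, 3 and 3). The highest mutant library, at 24.6 CPM, lay below the lowest control library, at 33.9 CPM. Within each diet taken alone, every mutant library lay below every control library in 14.6% of all genes on LPD, 18.2% on HFD and 14.9% on ND. The log2 fold changes of mutant over control were -1.36 ± 0.19 on LPD, -1.01 ± 0.21 on HFD and -1.90 ± 0.20 on ND (SE), with edgeR adjusted p-values of 2.5e-05, 0.00374 and 6.9e-07. Leaving out any 1 library kept Sesn2 past the threshold on each diet.

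Some synthesis enzymes were called higher in titled mutant on ND and on LPD. On ND, 5 members rose and 1 fell, where 13.7% and 13.3% of all genes did: Phgdh by 1.82 ± 0.30, Cth by 1.12 ± 0.26, Asns by 1.07 ± 0.26, Shmt2 by 0.97 ± 0.23 and Psat1 by 0.71 ± 0.21 (log2, SE), with edgeR adjusted p-values from 0.000121 for Phgdh to 0.0157 for Psat1. On LPD, 4 rose and 1 fell (5.22% and 10.4% of all genes): Cth by 0.93 ± 0.23, Phgdh by 0.82 ± 0.26, Asns by 0.72 ± 0.24 and Shmt2 by 0.60 ± 0.20, with edgeR adjusted p-values from 0.00761 for Cth to 0.0495 for Shmt2. The LPD calls of Asns, Shmt2 and Phgdh lay near the threshold (edgeR adjusted p = 0.0427, 0.0495 and 0.0369) and were lost in some fits without 1 library. Without control LPD 1, Asns was at 0.42, Shmt2 at 0.31 and Phgdh at 0.53 (edgeR adjusted p = 0.148, 0.132 and 0.157), while Cth (0.66) and Sesn2 (-1.49) were still called. Of the 21 fits that left out 1 library each, Shmt2 lost its LPD call in 18, Asns in 14 and Phgdh in 5. On HFD, Sesn2 was the 1 member that fell and none rose (5.64% and 0.14% of all genes), with Asns at 0.34 ± 0.27 and Phgdh at 0.60 ± 0.30 (log2, SE). On ND, Phgdh was 3.53-fold higher in titled mutant, a log2 fold change that was 1.29 when ND libraries above 70% duplicates were dropped. Within the libraries numbered below 25, which hold 1 ND library per title, Sesn2 was the 1 member still called on ND. Mthfd2, Chac1, Trib3 and Ddit3 passed in none of these comparisons between titles.

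Markers of acinar cells were set beside the synthesis enzymes, of which Asns was ranked against them. The summed level of 20 acinar markers was 26389 to 35475 CPM in mutant LPD, 35507 to 37625 in mutant HFD and 14139 to 26628 in mutant ND libraries, and 5898 to 17878 in control LPD, 24625 to 30418 in control HFD and 7116 to 9310 in control ND libraries. On HFD in titled control, 11 of the 20 markers were called higher and none lower, against 3.1% of all genes higher. Within titled mutant 1 of 20 was called higher on LPD and 2 of 20 on HFD. In titled mutant over titled control 11 of 20 were called higher on LPD (5.22% of all genes), 0 on HFD (0.14%) and 13 on ND (13.7%). None of the 20 was at 0 in any group. Their part in the enzyme results was not tested. Markers of other cell types gave few calls between diets: 1 of 8 mesenchyme markers was lower on HFD and 1 of 7 neural crest and glia markers lower on LPD in titled mutant, and 1 of 8 blood and immune markers was lower on HFD in titled control, with no call among 8 trunk and duct and 8 endothelium markers. In titled mutant over titled control, 3 of 8 trunk and duct and 1 of 8 mesenchyme markers were called higher on ND, and of the 7 neural crest and glia markers 1 was higher and 2 were lower on LPD and on ND, and 2 were lower on HFD.

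Ranked over the 21 libraries, the 4 libraries of lowest Asns (control LPD 1 and the 3 control ND libraries, 61.6 to 74.4 CPM) were also the 4 of lowest acinar sum. The 3 libraries of highest Asns, the mutant HFD libraries, were the 3 of highest acinar sum. The order was not complete, since mutant ND 1 and mutant ND 2 held 115 and 102 CPM of Asns at acinar sums of 14139 and 19783, while control LPD 2, 3 and 4 held 154 to 175 CPM of Asns at sums of 15691 to 17878. These libraries share their scaling and their sort, so the relation is given as a description.

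Endocrine markers were set beside Sesn2. In titled control the summed level of 15 endocrine markers was 2404 to 5649 CPM on LPD and 2405 to 4239 on HFD, against 4313 to 9744 on ND. The highest Sesn2 value, 82.2 CPM in control ND 2, came with the highest endocrine sum. The order was not complete. Control ND 3, next in endocrine sum at 8196 CPM, held 63.1 CPM of Sesn2. Control LPD 3, LPD 2 and ND 4 held 72.4, 65.4 and 64.8 CPM of Sesn2 at lower sums of 5649, 4588 and 4313. In titled mutant, where the endocrine sum was 446 CPM or less, Sesn2 stayed between 16.2 and 24.6 CPM. No endocrine marker was called between diets within titled control, where their median log2 fold change was -0.81 on HFD. None was called between diets within titled mutant either, although all 15 had an unadjusted p under 0.05 on LPD (median log2 fold change 4.81), where mutant LPD 1 and 2 held the hormone transcripts. Between titles 12, 12 and 15 of the 15 were called lower in titled mutant on LPD, HFD and ND, and their part in the Sesn2 difference was not tested.

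**Figure D4:**
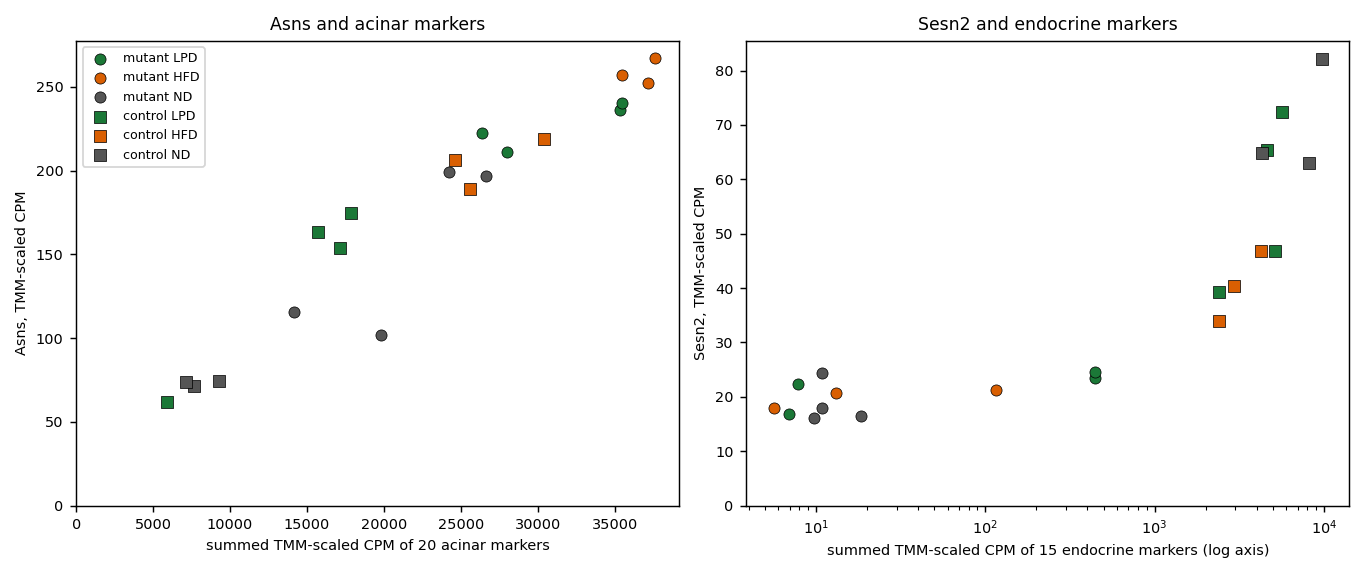
Left, Asns (vertical axis, TMM-scaled CPM) against the summed level of 20 acinar markers in each of 21 libraries; right, Sesn2 against the summed level of 15 endocrine markers on a log axis, with circles for titled mutant, squares for titled control, and green, orange and grey for LPD, HFD and ND. Asns runs from 61.6 CPM at the lowest acinar sum of 5898 to 267 CPM at the highest of 37625, and Sesn2 exceeds 24.6 CPM only in libraries whose endocrine sum is 2404 CPM or more.

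The genes whose level over the 21 libraries was most like that of Asns were Tmed6, Scml4, Ttc23, Ang, Gstm7 and Cckar, taken as the smallest root mean square difference of centred log2 CPM among 11756 genes of at least 5 CPM. These differences ran from 0.152 to 0.184, against a spread of 0.671 for Asns itself. Shmt2 and Cth ranked 18 and 19, ahead of Psat1 at 387, Mthfd2 at 875 and Phgdh at 1885. For Sesn2 the nearest were Aacs, Hdac6, Doc2b, Mageh1, Slc36a1 and Pacc1 (0.166 to 0.226), and Ddit3 ranked 2781. Tmed6 averaged 65.5 CPM in control HFD libraries, against 20.2 in control ND libraries, and Aacs averaged 36.3 CPM in mutant ND libraries, against 115 in control ND libraries.

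On LPD, the highest Chac1 and Trib3 values came from the LPD 4 library of each title. Chac1 stood at 0.653, 0.683, 0.650 and 6.01 CPM in mutant LPD libraries 1 to 4, against 0.816, 0, 1.26 and 0.561 in mutant ND libraries 1 to 4. In control LPD libraries 1 to 4 it stood at 0.872, 0.801, 1.23 and 5.59 CPM, against 1.88, 0.533 and 1.12 in control ND libraries 2 to 4. The LPD 4 library of each title, numbered 21 and 22, was thus at least 4.55 times the highest other LPD library of its title, while the other LPD libraries lay within the range of ND.

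Trib3 followed the same libraries, with 5.80 CPM in mutant LPD 4, against 1.91 to 2.84 in the other mutant LPD libraries, and 5.27 CPM in control LPD 4, against 2.12 to 3.42 in the other control LPD libraries. Psat1 (141 and 132 CPM) and Mthfd2 (48.6 and 43.9 CPM) were also at their highest of all 21 libraries in mutant LPD 4 and control LPD 4. Counting Cth, 5 of the 10 members were higher in both of these libraries than in the other LPD libraries of their title, as were 9.78% of all tested genes. An excess of over 1.5 times in both was found for Chac1 and Trib3, and for 0.766% of all genes. This pattern was chosen after its values were seen. Over all tested genes, the deviations of mutant LPD 4 and control LPD 4 from their group means correlated at 0.319.

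As group changes these rises did not pass. On LPD, Chac1 had log2 fold changes of 1.47 ± 0.82 in titled mutant and 0.89 ± 0.86 in titled control (SE, edgeR adjusted p = 0.300 and 0.922), which became -0.12 without mutant LPD 4 and -0.26 without control LPD 4. Trib3 had 0.95 ± 0.42 and 0.72 ± 0.45 (adjusted p = 0.191 and 0.852), which became 0.53 and 0.40. Asns, by contrast in its values, was 222 CPM in mutant LPD 4 and 175 in control LPD 4, close to the neighbouring LPD libraries. On HFD in titled mutant, Chac1 changed by 1.42 ± 0.86 and Trib3 by 0.68 ± 0.45 (log2, SE, edgeR adjusted p = 0.333 and 0.373). Chac1 ran from 1.15 to 3.29 CPM in mutant HFD libraries, against 0 to 1.26 in mutant ND libraries. Trib3 ran from 1.88 to 4.11 CPM, against 0.821 to 2.18. Aldh1l2, a mitochondrial folate enzyme of the serine list below that is outside the rule for named genes, stood at 40.7 CPM in mutant LPD 4, against 4.96 to 12.7 in the other mutant LPD libraries, and at 44.3 CPM in control LPD 4, against 2.37 to 19.8 in the other control LPD libraries. The serine list and the ATF4 list below hold 41 tested genes. Of these, 7 were higher in both LPD 4 libraries than in the other LPD libraries of their title. Aldh1l2 was the 1 gene of the 41 with an excess of over 1.5 times in both, and it was picked after these values were seen.

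A list of 19 other serine, one-carbon and amino acid synthesis genes moved on HFD in titled control. Of these, 8 were called higher and 2 lower, against 3.1% and 0.808% of all genes. Their median log2 fold change was 0.48, against -0.01 over all genes. Cbs, which makes cystathionine ahead of Cth, rose by 1.70 ± 0.29, and Mthfd1, the cytosolic folate enzyme, rose by 0.81 ± 0.17. Glul, which makes glutamine, was lower at -0.88 ± 0.19 (log2, SE, edgeR adjusted p from 0.0036 for Cbs to 0.0129 for Glul). Within titled mutant, Glul was the single gene of the list to pass on HFD (-0.81 ± 0.18) and none passed on LPD. Between titles, 14 of the 19 were called higher and 2 lower in titled mutant on ND (13.7% and 13.3% of all genes), among them Cbs (1.55), Shmt1 (1.32) and Gclc (0.82). On LPD the counts were 8 and 2 (5.22% and 10.4% of all genes), and on HFD 0 and 1 (0.14% and 5.64%).

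Of 22 tested genes among the other regulators and targets of the ATF4 pathway, 4 were called higher and 1 lower on HFD in titled control, with a median of 0.22. Nupr1, a stress-induced chromatin protein, rose by 1.47 ± 0.30, the transcription factor Atf3 by 1.35 ± 0.29 and the secreted protein gene Stc2 by 0.99 ± 0.22 (log2, SE, edgeR adjusted p from 0.0112 to 0.0174). In titled mutant, Atf3 rose by 1.75 ± 0.26 and Ppp1r15a, which helps to remove the phosphate from eIF2alpha, by 1.17 ± 0.21 on HFD, while Jdp2, a repressor of the same family as Atf3, was lower at -1.22 ± 0.29. Ppp1r15a was the single gene of this list called on LPD in titled mutant (1.01 ± 0.20). Atf4 itself was called on neither diet in either title, with 154 ± 16 CPM in mutant LPD, 185 ± 34 in mutant HFD and 124 ± 12 in mutant ND libraries, and 135 ± 28 in control LPD, 153 ± 25 in control HFD and 116 ± 20 in control ND libraries (SD, n = 4, 3, 4, 4, 3 and 3). Its regulation is known to lie mostly in translation, which these libraries do not measure.

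Among 14 targets of endoplasmic reticulum stress, Herpud1 and Dnajc3 were called higher on HFD in titled control (1.19 ± 0.20 and 0.65 ± 0.13), and Dnajc3, Herpud1 and Dnajb9 in titled mutant (0.61 ± 0.12, 0.91 ± 0.19 and 1.04 ± 0.24, log2 with SE). Herpud1, a part of the machinery that clears misfolded proteins, was also called on LPD in titled mutant (0.74 ± 0.17). Of 15 genes of mTORC1 nutrient sensing, Deptor, an mTOR inhibitor, was higher on HFD in titled control (0.64 ± 0.14), on HFD in titled mutant (0.58 ± 0.13) and on LPD in titled mutant (0.60 ± 0.12). Sesn3, a relative of Sesn2, was lower on HFD in titled control (-0.63 ± 0.14), and Castor2, an arginine sensor relative, Sesn3 and Rragd were lower in titled mutant on every diet, with Castor2 at -3.04 on LPD, -2.69 on HFD and -3.50 on ND (log2). Of 14 p53 targets, a pathway also known to raise Sesn2, Ccng1 (0.76 ± 0.16) and Plk2 (0.995 ± 0.27) were called higher on HFD in titled control, and Btg2 (0.92) on HFD in titled mutant. The part of this pathway in the level of Sesn2 was not tested. The diet calls of all these lists are to be read against the shares over all genes. Those were 3.1% higher and 0.808% lower on HFD in titled control. In titled mutant 2.86% were called on HFD and 1.05% on LPD, in either direction.

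Between titles, the ATF4 list had 1 gene called higher and 1 lower on LPD, 0 and 1 on HFD, and 6 and 2 on ND in titled mutant, out of 22. Over all genes the shares called higher and lower were 5.22% and 10.4% on LPD, 0.14% and 5.64% on HFD, and 13.7% and 13.3% on ND. The median of this list was 0.12 on LPD, 0.14 on HFD and 0.11 on ND, against 0.025, -0.01 and 0.01 over all genes. Gadd45a, a growth arrest gene, was the one lower on every diet, at -2.47, -1.70 and -2.95 on LPD, HFD and ND (log2). Of 14 endoplasmic reticulum genes, 4 were called higher and 0 lower on LPD, none on HFD, and 5 higher and 1 lower on ND. Of 14 p53 targets, 2 were called higher and 0 lower on LPD, none on HFD, and 3 higher and 4 lower on ND, to be read against the same shares. Calls against ND rested in part on the ND libraries. Without those above 70% duplicates, no gene of the whole table was called on LPD in titled mutant, where 1.05% were with them, while 312 were called on HFD in titled mutant, against 676, and 664 on HFD in titled control, against 924. Within the libraries numbered below 25 these counts were 4, 63 and 4.

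Some members share sequence with neighbours, and none of the sources used here gives the strand setting of the counting. The 3' end of Ddit3, at 127296288, overlaps Mars, which spans 127296221 to 127311786. The whole of Mars held 65073 counts over the 21 libraries, against 5754 for Ddit3. How far the shared stretch affects the level of Ddit3 is uncertain and was not tested. Shmt2 overlaps the end of Ndufa4l2 and Sesn2 the noncoding Gm12981, which held 1054 and 686 counts, against 114663 for Shmt2 and 24743 for Sesn2. Mthfd2 overlaps Gm43890 (767 counts, against 20753) and Cth overlaps Gm43314 (436, against 16591). Ddit3 also overlaps the noncoding Gm4189 (464, against 5754), and Psat1 overlaps the pseudogene Gm3329 (5, against 64409). The pseudogene Phgdh-ps1 held 565 counts, against 279670 for Phgdh.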

How the data were processed

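RNA was measured in 24 libraries, of which 21 pancreas libraries in 6 groups were compared. Gene counts were made by the authors with featureCounts 2.0.2 after trimming with cutadapt 2.10 and alignment with STAR 2.7.8a to GRCm38.p6, per the submitters' processing notes. The deposited FPKM values follow from these counts, to a median relative difference of 9.6e-05, and served an alternative. The percent values of duplicate and aligned reads are the authors', as deposited.

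Counts were tested with edgeR 4.0.16 in R 4.3.3 (TMM scaling, filterByExpr, quasi-likelihood F test, 1 model of 6 groups, 11 comparisons). P-values were Benjamini-Hochberg adjusted over 23630 tested genes, 58.8% of the 40173 listed, which took 99.91% of counts or more in every library. Alternatives used DESeq2 1.42.0, limma 3.58.1 on log2(FPKM + 1) and log2(FPKM + 0.1), other filters, a replicate block, a term for library numbers, and each library left out in turn. The script was tested on simulated data. All 10 genes are named, and other genes where they belong to a list and passed, or were nearest in pattern. The members and lists were chosen with earlier results of these data known. Intervals of single libraries are exact Poisson (95%) and cover counting error, as does the floor of 3 counts.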

Additional observations from a re-analysis of the deposited data

Results flagged for a closer look

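Among 30 groups of 4 libraries tested for a library far from the rest, 3 were flagged, where chance gives about 1 in 20. Phgdh in control LPD libraries was lowest in control LPD 1, at 134.3 TMM-scaled CPM, with a gap to the next library of 0.906 of the group's range. Chac1 was highest in mutant LPD 4 at 6.01 TMM-scaled CPM (0.994 of the range) and in control LPD 4 at 5.589 (0.911 of the range).

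The ND library of mixed genotype, which entered no comparison, held Cth at 50.27 CPM of total counts (47.49 to 53.17, exact Poisson interval), against at most 33.54 in any titled control pancreas library. It had 80.22% duplicate reads, and 56.8% of its counts fell on Gm26917.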

How the results depend on the processing

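The comparisons of diets against ND rest on 7 ND libraries, 5 of them with late library numbers, and depth limits Chac1 and Trib3. For the 10 members in 11 comparisons, 3464 of 3740 values under alternatives kept their direction and side of the threshold, 134 lost the call, 34 gained it, and 2 called values reversed. A further 106 values, called under neither setting, changed sign, among them Phgdh on LPD in titled mutant (-0.363, up to 0.404 within libraries numbered below 25) and Chac1 on LPD in titled mutant (1.465, and -0.115 without mutant LPD 4). The causes were not tested.

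On HFD against ND in titled control, 5 members were called in the reported model. The count was 1 with limma on log2(FPKM + 1), 0 with log2(FPKM + 0.1), 3 with the mixed library as a control ND library, and 2 when the model held late numbering (25 up) as a term. It was 0 within libraries numbered below 25 and 3 without the 3 titled mutant libraries with hormone counts, both chosen after seeing the data. Leaving out each library in turn gave 0 to 6, with 0 without control ND 2; Phgdh lost its call in 16 and Sesn2 in 9 of 21 such fits. On LPD against ND in titled control the range was 0 to 4, with 4 without control LPD 1. In titled mutant DESeq2 called 1 member on LPD and 3 on HFD, beside 2302 and 2373 of all genes, where the reported model called 0 members. Leaving out libraries gave 0 to 2 and 0 to 3, the highest without control LPD 1.

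For titled mutant over titled control on LPD, 5 members became 2 with no filter, 2 with either limma setting, 2 with only the compared libraries, and 1 with the mixed library or without the hormone libraries, and leaving out libraries gave 2 (without control LPD 1) to 6 (without control LPD 4). On HFD, 1 became 0 with limma on log2(FPKM + 0.1) and 6 with only the compared libraries. On ND, 6 became 3 with either limma setting and 1 within libraries numbered below 25, and leaving out libraries gave 5 to 7. With the mixed library as control ND, Cth reversed to -0.192 on HFD in titled control and to -0.572 for mutant over control on ND (log2). Uncalled Cth values changed sign there too, to -0.697 on LPD in titled control, and to 1.476 and 1.013 for the difference between titles on LPD and HFD. With log2(FPKM + 1) the median over all genes shifted to 0.21 on LPD and 0.14 on HFD in titled mutant and to -0.23 between titles on ND; with log2(FPKM + 0.1) these were 0.45, 0.34 and -0.49.

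Replicate numbers did not pair the libraries throughout: 11 of 46 same-numbered pairs had deviations from their group means correlated above 0.1 (-0.274 to 0.35). The highest correlations were those of control HFD 3 with mutant HFD 3 (0.35) and of control LPD 4 with mutant LPD 4 (0.319). With a replicate block, 7 members were called on HFD in titled control and 2 on HFD in titled mutant, and the count over all genes on HFD in titled control was 1513, of which 907 were among the 924 called without it.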

Other observations

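A pair of hypothalamic libraries, 1 per title, entered no comparison. Psat1 stood at 53.2 CPM of total counts in the titled mutant and 49.2 in the titled control hypothalamic library, and Shmt2 at 35.1 and 37.9. Asns stood at 8.45 and 16.7, and Phgdh at 16.2 and 21.1. Chac1 stood at 5.55 CPM in the titled mutant library (4.73 to 6.46, exact Poisson interval) and at 1.68 in the titled control library (1.23 to 2.23), with no replicate of either. Cth had 0 counts in the titled mutant library, which allows up to 0.1 CPM, and 0.678 CPM in the titled control library. Ddit3 stood at 14.4 and 15.2 CPM.

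The ND library of mixed genotype held Asns at 28.01 CPM of total counts, Phgdh at 276 and Sesn2 at 23.8, and no Chac1 count, which allows up to 0.123 CPM.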
